A study of Mus musculus with 60 samples.

Results

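Respiratory complexes II, III and IV and the mitochondrial ATP synthase were examined at the level of their nuclear genes in the mouse striatum. The genes were taken by symbol, as those of the deposited gene table whose name starts with Sdha, Sdhb, Sdhc or Sdhd, Uqcr, Cox4, Cox5, Cox6, Cox7, Cox8, Cyc1 or Atp5. This gave 40 of 9066 genes, and 208 of 114691 rows of the deposited exon table. There were 4 subunits of complex II, 8 of complex III, 7 of complex IV and 14 genes of ATP synthase. A further 3 genes, Sdhaf2, Sdhaf3 and Sdhaf4, make assembly factors of complex II and entered because their symbols start with Sdha. The last 4 are annotated as processed pseudogenes, copies without introns of Cox6c, Atp5k and Uqcrh.

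The mice were of HS-CC, an outbred stock founded by crossing inbred strains, and came from earlier generations bred selectively for their response to haloperidol, a blocker of the dopamine D2 receptor. PolyA RNA of the hand-dissected striatum was sequenced in 1 library per mouse. By the labels each mouse is a responder or a non-responder for catalepsy, the rigid stillness that haloperidol can bring about, and is female or male. The 28 females comprised 15 responders and 13 non-responders, and the 32 males 15 and 17. Age and the interval between any drug dose and dissection are not given in the sources used here, and no mouse is labelled as an untreated control. In bulk tissue, fewer cells of a type and less RNA per cell cannot be told apart.

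Complex II, succinate dehydrogenase, oxidizes succinate in the tricarboxylic acid cycle and passes the electrons to ubiquinone. Complex III takes them from ubiquinol to cytochrome c, and complex IV, cytochrome c oxidase, from cytochrome c to oxygen. Complexes III and IV pump protons across the inner mitochondrial membrane, and ATP synthase lets them flow back through its membrane part, Fo, to drive ATP synthesis in its catalytic part, F1. The catalytic core of complex IV and parts of complex III and Fo are encoded in the mitochondrial genome, and the remaining subunits in the nucleus. Neurons use much of this ATP to restore ion gradients after firing.

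Recovered read totals per mouse ranged from 4913122 to 21872744, with a median of 14520042, and 17 mice had at most 9507322 while the other 43 had at least 12051239. The 17 shallower mice were spread over the 4 groups, and were mouse 26 and the unbroken run of mice 41 to 56. A 3′ bias was computed per mouse as the median slope of log2 exon values along 5197 other genes. It was largest in mouse 63, a female responder (1.48), and in mice 5 (0.91), 4 (0.68) and 62 (0.48). In the shallower mice it ran from -0.32 to -0.01 with a median of -0.25, and in the deeper mice from -0.16 to 1.48 with a median of 0.01. Depth range and bias thus went together. Of the markers of striatal projection neurons, 7 of 10 were in the table, and their summed value lay between 57073 and 135136 in all mice. None of 5 choroid plexus markers was in the table.

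All 40 genes averaged at least 10 normalized reads and were tested. Levels between genes were compared as the mean normalized read count per kilobase of the union of annotated exons. In complex IV, Cox8a stood highest at 8128 ± 1946 (SD, n = 60) per kilobase, followed by Cox6a1 at 5240 ± 1259 and Cox4i1 at 3469 ± 836, all 3 of them small supernumerary subunits around the catalytic core. Cox6c was lowest in that complex, at 343 ± 114. In ATP synthase the F1 subunits beta, Atp5b (4665 ± 493), and alpha, Atp5a1 (4293 ± 549), which form the catalytic hexamer, were highest, and their ranges over mice overlapped. The lowest was Atp5s, coupling factor B, at 169 ± 31.3. In complex III the level per kilobase ran from 463 ± 56.1 for the core protein Uqcrc1 to 2234 ± 602 for Uqcr10, a small supernumerary subunit. In complex II, Sdhd, a membrane anchor (1371 ± 225), and Sdha, the flavoprotein that oxidizes succinate (1343 ± 135), differed by less than their spread, and Sdhc, the other anchor, was lowest at 458 ± 77.7. The assembly factors of complex II ran from 59.7 ± 9.74 for Sdhaf3 to 379 ± 105 for Sdhaf4.

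These levels depend on the length that is set under them. With the length of the principal transcript instead of the exon union, the median over the 40 genes rose from 800.0 to 1442 per kilobase, Cox8a (9147) and Atp5b (10315) stayed highest in their complexes, and Atp5s (216) stayed lowest in ATP synthase. In complex III the highest gene was then Uqcrh (3147) instead of Uqcr10 (3006), and in complex II Sdha (1910) instead of Sdhd (1371). The lowest was then Cox7a2 (1417) in complex IV, where Cox6c had 1659, and Uqcrq (1083) in complex III, where Uqcrc1 had 1157. Sdhaf4 (485) then lay above Sdhc (469). Of the subunits with tissue isoforms, Cox4i1, Cox6a1, Cox6b1, Cox7a2 and Cox8a were in the table, and of the genes for Fo subunit c, Atp5g3. Their partner isoforms were not analysed here.

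Sequence copies limit some of these values. Of the 50-base stretches of the Cox6c2 transcript 52.7% also occurred in a transcript of another gene, and the share was 50.3% for Atp5o, 47.9% for Atp5h, 38.7% for Atp5f1, 32.0% for Cox5a and 24.8% for Uqcrc2. The search covered both strands, so these shares can include genes annotated over the same place as well as copies elsewhere. Reads of stretches with a copy elsewhere could have been split between genes. Cox6c2 is the intronless copy of Cox6c, and 224 of the 231 coding bases of Cox6c (97.0%) were identical in it. The pair is shown over bases 2 to 61 of the coding sequence (GENCODE M21, GRCm38), where capitals mark the 4 bases that differ:

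Cox6c: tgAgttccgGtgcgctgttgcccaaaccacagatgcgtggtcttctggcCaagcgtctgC
Cox6c2: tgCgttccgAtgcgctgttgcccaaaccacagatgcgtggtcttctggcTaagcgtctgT

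The pseudogene's value was 727 ± 265 against 1224 ± 406 for Cox6c (SD, n = 60), so the copy held reads in every mouse, with a lowest value of 432. Exons of 11 of the 40 genes overlapped another annotated gene on the opposite strand. Atp5j overlaps Gabpa, a subunit of an ETS family transcription factor. Atp5o overlaps 2 antisense genes and, on its own strand, another protein-coding entry that is also named Atp5o. The library kit does not mark strand, so reads of such pairs cannot be told apart. Cox7a2 had no overlapping gene, and its principal transcript shared no exact 50-base stretch with another annotated transcript. The search for copies left out inexact and unannotated ones. It also left out sequence beyond the annotated 3′ end, into which the last Cox7a2 exon row reaches.

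The first comparison asked whether the genes differ between mice that respond in the catalepsy test and mice that do not. Of the 40 genes, 1 passed the test. Cox7a2, which encodes the supernumerary subunit VIIa of cytochrome c oxidase in its widely expressed isoform, was lower in responders. Its normalized read count in non-responders was 612 in the lowest mouse, 1040 at the median and 1901 in the highest, and in responders 410, 698 and 1827. The ranges overlapped, and 8 of 30 responders lay under the lowest non-responder. The means were 1090 ± 288 and 778 ± 292 (SD, n = 30 each), a ratio of 0.713. The log2 difference was -0.52 (95% confidence interval -0.74 to -0.31, limma adjusted p = 0.0145). Across all 8535 genes tested 0.105% were called at an adjusted p under 0.05, 9 genes of which 5 were lower in responders (0.0586%). The 1 call among 40 genes is to be read against that share, and with so few calls it says nothing of the complexes as a group.

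The direction was the same in both sexes. Female non-responders had 612, 1052 and 1719 as lowest, median and highest Cox7a2 count and female responders 446, 680 and 1253. Male non-responders had 751, 1027 and 1901 and male responders 410, 733 and 1827. The difference was also the same in sign at either depth. Among the 43 deeper mice it was -0.47, where it missed the threshold (limma adjusted p = 0.250), and among the 17 shallower mice -0.68 (limma adjusted p = 0.879). With edgeR on the recovered reads it was -0.48 and just missed it (adjusted p = 0.0545), and with DESeq2 it was -0.48 and passed (adjusted p = 0.0138). With the 3′ bias as a covariate it was -0.56 (limma adjusted p = 5.72e-04).

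**Figure D1:**
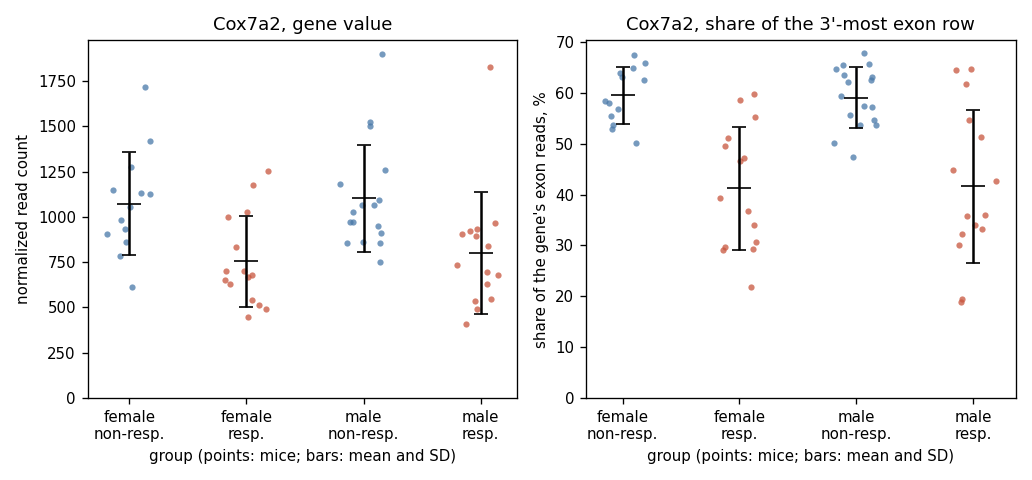
Cox7a2 in the 60 mice by phenotype and sex, with the normalized read count of the gene on the left and the percentage of its exon reads in the 3′-most exon row on the right. Points are mice and bars give the mean and SD of each group. In the share, female responders reach down to 21.9% and male responders to 18.9%, where the lowest non-responders are at 50.1% and 47.3%.

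The exon table placed this difference within the gene. Cox7a2 lies on chromosome 9 at chr9:79755361-79759878 of GRCm38, on the minus strand, and has 4 exon rows in the deposited table, with starts at 79607447, 79606297, 79604084 and 79603048 of NCBI m37 in order from the 5′ end. The starts of the first 3 rows match annotated exons in their spacing, of 71, 90 and 85 bases. On the minus strand the start coordinate of a row marks its 3′ end. By the same spacing that of the last row lies 120 bases beyond the annotated 3′ end of the gene. The last annotated exon lies between the starts of this row and the one before, and whether the row covers it was not tested. Its coding part is shown to place the row, with the stop codon in capitals (chr9:79755547-79755605, GRCm38, minus strand, GENCODE M21):

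Cox7a2 last exon: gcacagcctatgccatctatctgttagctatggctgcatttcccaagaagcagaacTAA

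No other annotated gene had an exon from 500 bases downstream of this row to the 5′ end of Cox7a2. The 3 upstream rows together were level between the phenotypes, at 442 ± 127 in non-responders and 439 ± 146 in responders (SD, n = 30 each), a ratio of 0.994. The last row was at 648 ± 184 and 338 ± 218, a ratio of 0.522. The lower gene value of responders was thus located in the reads of the 3′-most row. Reads of these outbred mice were aligned to the reference genome. Whether sequence variants among the mice altered the reads counted in a row was not tested.

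**Figure D2:**
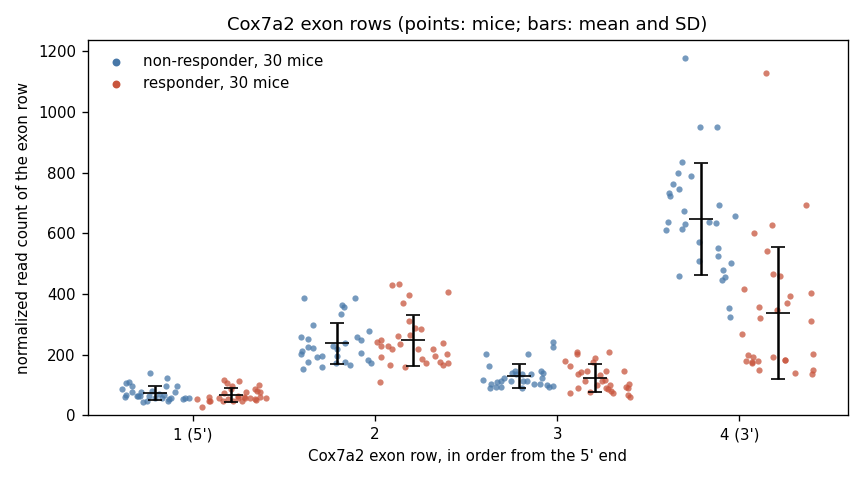
Normalized read count of each of the 4 Cox7a2 exon rows, ordered from the 5′ end, in 30 non-responders and 30 responders. Points are mice and bars give the mean and SD. The groups lie on the same levels in the first 3 rows and part in the last, with means of 648 and 338.

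The share of the gene's exon reads in the last row was 47.3% in the lowest non-responder, 58.9% at the median and 67.9% in the highest. In responders the values were 18.9%, 38.1% and 64.7%. Thus 20 of 30 responders lay below every non-responder, 10 of them female and 10 male, while the other 10 lay within the non-responders' range. Of these 20 mice, 15 were among the 22 deeper responders and 5 among the 8 shallower ones. The SD over mice was 13.4 percentage points in responders and 5.67 in non-responders.

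In a test of each row's log2 share of its gene, 166 rows of 36 of the genes were tested and 3 were called, all of Cox7a2, where 0.0238% of all 67134 rows were called. The last row fell by 0.59 on the log2 scale in responders (limma adjusted p = 6.13e-04). The second row rose by 0.56 (limma adjusted p = 8.21e-05) and the first by 0.40 (limma adjusted p = 0.0110). The third row had a difference of 0.41 and an adjusted p of 0.0614 by limma, which passed in 3 of 4 other settings. Shares of 1 gene add up to a whole, so the higher shares of the upstream rows and the lower share of the last row are 1 difference and not separate ones.

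A 3′ bias changes the reads at the 3′ end of a gene, so its values are given beside this result. It ranged from -0.32 to 1.48 in female responders and from -0.30 to 0.68 in male responders, with medians of -0.02 and 0.01, against -0.07 and -0.02 in female and male non-responders. With the bias as a covariate, all 4 Cox7a2 rows were called, and without mouse 63, 3 rows. The nearest gene tested, Tmem30a, 14 kb away, had a log2 difference of -0.0014 (limma adjusted p = 1.000) between the phenotypes. Of the 8 genes tested within 2000 kb on either side, 1 was called, Ick, a kinase gene 1646 kb away, with 0.21 (limma adjusted p = 0.0348). Ick was chosen for this mention after its value was seen.

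The other 39 genes did not pass the test. Of all 40 log2 differences 29 were negative and 11 positive, with a median of -0.020 beside -0.0033 over all genes tested. Without mouse 63, 33 were negative with a median of -0.049, and with the 3′ bias as a covariate 34 with a median of -0.057. Sdhb, the iron-sulfur subunit of complex II, had the next smallest p. Its count was 1056, 1368 and 2095 in the lowest, median and highest non-responder and 893, 1225 and 2143 in responders. The ranges overlapped over most of their length, with a log2 difference of -0.16 (95% confidence interval -0.28 to -0.031, limma adjusted p = 0.525). It passed in 1 alternative, with the 3′ bias as a covariate (-0.19, limma adjusted p = 0.0239). Atp5e, the epsilon subunit of F1, came next with -0.18 (95% confidence interval -0.39 to 0.037, limma adjusted p = 0.939), with 665, 925 and 1790 in non-responders and 563, 766 and 2172 in responders.

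Within complex IV, Cox7a2 stood apart from its partners in the size of the estimate. The other 6 subunits had log2 differences between -0.076 (Cox8a) and 0.13 (Cox6c), each with an interval that holds 0. In complex III the 8 estimates lay between -0.065 (Cyc1, cytochrome c1) and 0.034 (Uqcrh, the hinge protein). In ATP synthase they lay between -0.18 and 0.092, the latter for Atp5s. The widths of the intervals differed between genes. They ran from -0.11 to 0.057 for Atp5b and from -0.058 to 0.099 for Sdha, and from -0.23 to 0.078 for Cox8a and from -0.24 to 0.14 for Uqcr11.

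**Figure D3:**
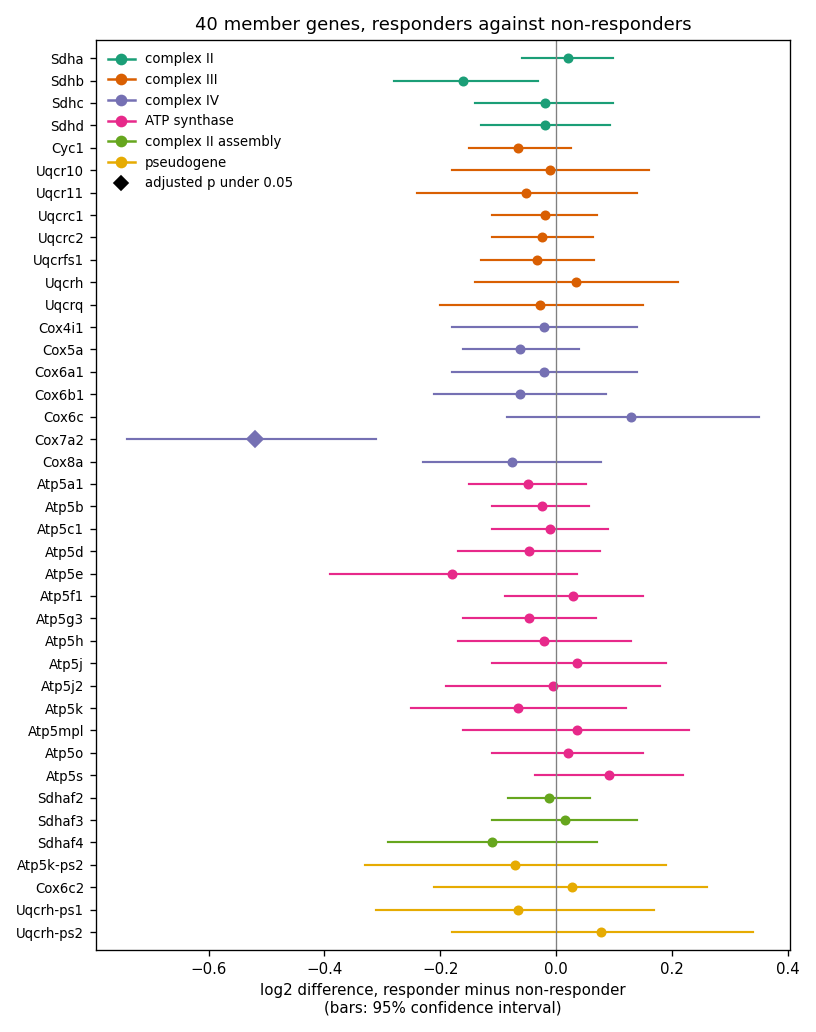
Log2 difference of each of the 40 genes, responder minus non-responder, with its 95% confidence interval from limma, coloured by complex. Cox7a2, drawn as a diamond at -0.52, is the gene with an adjusted p under 0.05, and the interval of Sdhb alone among the others leaves out 0.

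Sex was compared next. None of the 40 genes passed, while 3 of 8535 genes did (0.0351%), and none of the 40 had an unadjusted p under 0.05 in limma. EdgeR and DESeq2 also called none. The median log2 difference of male against female was -0.0242 for the 40 genes beside -0.0102 for all, and turned to 0.011 without mouse 63. The smallest p belonged to Cox5a, subunit Va of complex IV, with 886, 1020 and 1691 in females and 775, 1006 and 1378 in males and a difference of -0.080 (95% confidence interval -0.18 to 0.022). Sdhaf3 followed with -0.071 (-0.19 to 0.050) and Sdha with -0.043 (-0.12 to 0.035).

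The phenotype difference was then tested for a difference between the sexes. No gene of the 8535 was called by limma (0%), edgeR or DESeq2, and none of the 40 had an unadjusted p under 0.05, where 48 of all genes did in limma. The interaction of Cox7a2 was 0.019 (95% confidence interval -0.42 to 0.45). The smallest p among the 40 was that of Atp5s, with -0.14 (-0.40 to 0.12). Its medians were 325 in female non-responders, 349 in female responders, 318 in male non-responders and 351 in male responders. Sdha came next with 0.076 (-0.081 to 0.23), then Uqcrh-ps1, a pseudogene of Uqcrh, with -0.21 (-0.69 to 0.28). The last had a mean of 96.4 normalized reads.

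The 40 genes varied between mice and did so together. Their median coefficient of variation was 0.230 beside 0.163 for all genes tested. Among genes averaging at least 100, the most variable were Cox6c2 (0.364), Atp5k-ps2 (0.361) and Cox7a2 (0.351). The least variable were Sdhaf2, which helps attach the flavin to Sdha (0.0914), Sdha itself (0.101) and Atp5b (0.106). With the 3′ bias removed, the median of the 40 fell from 0.230 to 0.153, beside 0.138 for all genes.

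Across the 60 mice the Pearson correlation between pairs of the 40 genes had a median of 0.67, and 761 of 780 pairs were positive, while the median over pairs of all genes was 0.0017. These correlations are a description: the points share library, depth and base composition, and the 3′ bias moved with them. With the bias held fixed the median was 0.45, and without the 4 mice of strongest bias it was 0.49. Among the 43 deeper mice it was 0.70. Within complex II the median was 0.45, within complex III 0.66, within complex IV 0.70 and within ATP synthase 0.65. With the bias held fixed these were 0.20, 0.35, 0.57 and 0.33. Complex II was at 0.26 among the deeper mice and at 0.10 with bias and depth range held fixed. For comparison, pairs of 1 of the 40 genes and 1 of the 42 nuclear genes of complex I had a median of 0.65.

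**Figure D4:**
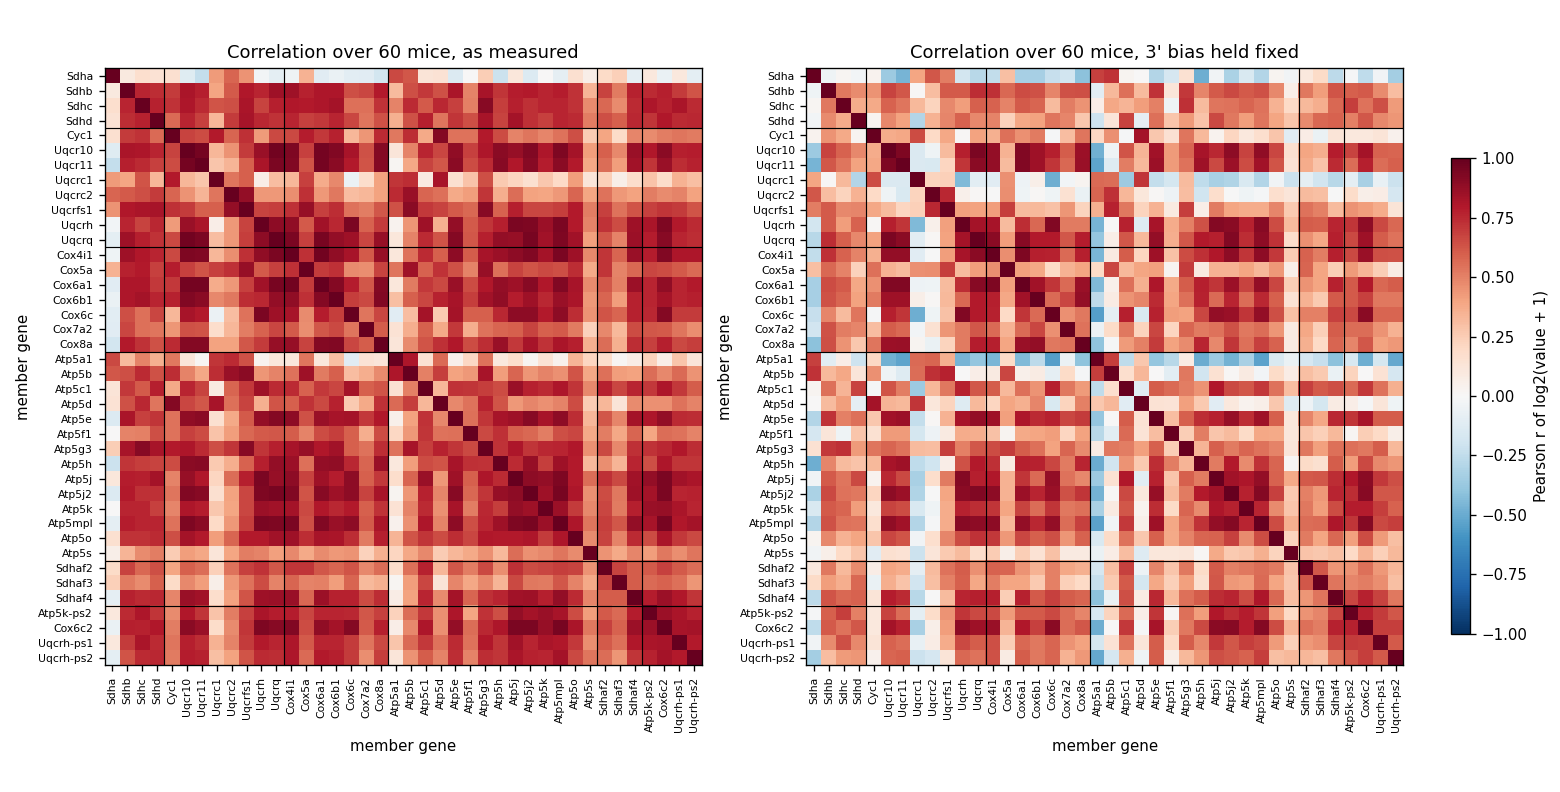
Pearson correlation of log2(value + 1) over the 60 mice for every pair of the 40 genes, as measured on the left and with the 3′ bias held fixed on the right. Genes are ordered by complex, with lines between complexes, and colour runs from -1 in blue to 1 in red. The median over pairs is 0.67 on the left and 0.45 on the right, where the rows of Sdha, Uqcrc1 and Atp5a1 turn pale or blue.

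The pairs were also grouped by coding length, a grouping and cut that were not planned beforehand. The assembly factors and pseudogenes were left out of this grouping. The 18 subunit genes with a coding sequence under 500 bases had a median correlation of 0.81 among themselves, the 15 longer subunit genes one of 0.58, and pairs of a short and a long gene one of 0.61. With the bias held fixed the values were 0.68, 0.25 and 0.32. Atp5d (504 bases), Cox4i1 (507) and Sdhc (507) lay just above the cut and counted as long. Cox4i1, subunit IV of cytochrome c oxidase, and the short gene Uqcr10 of complex III correlated at 0.94, and at 0.88 with the bias held fixed. This pair crosses the cut. The median coefficient of variation was 0.269 in the short subunit genes and 0.142 in the long ones, while the short assembly factors Sdhaf2, Sdhaf3 and Sdhaf4 had 0.0914, 0.163 and 0.277.

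Sdha, Atp5a1 and Uqcrc1 went least with the rest, with median correlations to the other genes of 0.06, 0.17 and 0.31, and of -0.04, -0.25 and -0.10 with the bias held fixed. All 3 encode large matrix-side subunits, the flavoprotein of complex II, the alpha subunit of F1 and a core protein of complex III. They correlated with one another, Atp5a1 with Uqcrc1 at 0.72 and with Sdha at 0.66, and Sdha with Uqcrc1 at 0.43. Among the 43 deeper mice these values were 0.63, 0.42 and 0.13. Atp5a1 and Atp5b, the partners in the F1 hexamer, reached 0.81. In contrast, Sdha and Sdhb, which bind each other in complex II, had a correlation of 0.10. The membrane anchors Sdhc and Sdhd had one of 0.77, and of 0.37 with the bias held fixed.

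The association with the 3′ bias was tested directly, since it moves with the covariation. Of the 40 genes 39 were higher in mice of stronger bias, beside 39.6% of all genes higher and 77.0% associated in either direction, and Sdha was the exception with 0.027 per SD of the bias (95% confidence interval -0.012 to 0.066, limma adjusted p = 0.196). The median was 0.20 on the log2 scale per SD, beside 0.0008 over all genes. The estimates ran from 0.066 for Sdhaf2 through 0.12 for Uqcrc2 to 0.24 for Uqcr11, Atp5e and Atp5mpl, and the pseudogenes went up to 0.36 (Uqcrh-ps2). In the 18 short subunit genes they lay between 0.15 and 0.24, in the 15 long ones between 0.027 and 0.22, and the assembly factors Sdhaf2, Sdhaf3 and Sdhaf4, also short, had 0.066, 0.077 and 0.22. EdgeR on recovered reads also called 39 of the 40. Without mice 4, 5, 62 and 63, 19 of the 40 were called, beside 19.3% of all genes called in that direction.

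The pseudogenes correlated with their parents and as much or more with other genes of the set. Cox6c2 correlated with Cox6c at 0.91, Atp5k-ps2 with Atp5k at 0.86, and Uqcrh-ps1 and Uqcrh-ps2 with Uqcrh at 0.79 and 0.75. Yet Cox6c2 correlated with Atp5mpl at 0.95 and Atp5k-ps2 with Atp5j at 0.88, while Uqcrh-ps1 reached 0.84 with Atp5j and Uqcrh-ps2 0.83 with Cox6c2. For Cox6c2, which is alike to Cox6c as printed above, reads of the parent placed on the copy cannot be told apart from transcripts of the copy. The share of 50-base stretches found in another gene's transcript was 52.7% for Cox6c2 and 18.3% for Uqcrh-ps1. It was 1.24% for Atp5k-ps2 and 0% for Uqcrh-ps2. Whether reads of the parents fell on copies other than Cox6c2 was not tested.

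At the median, exon shares of these genes varied less over mice than those of all genes. The rows were not matched for share of the gene or for read count. Among rows averaging at least 50, the SD over mice of the log2 share of the gene had a median of 0.13 in 137 rows of these genes, beside 0.22 in all 30423 rows. A row of Atp5o, which encodes the OSCP subunit of the peripheral stalk that links F1 to Fo, was far above this with an SD of 0.94, the 99.9th percentile of all rows. A row of Atp5h, subunit d of the same stalk, had 0.60, and one of Atp5c1, the gamma subunit that turns inside F1, had 0.48. These rows were singled out after their values were seen. The last row of Cox7a2 had 0.47.

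The Atp5o row starts at 91926704 of NCBI m37 and is the fourth of 6 from the 5′ end. All 6 starts match annotated exons in their spacing, and this one is exon 5 of 7 of the principal transcript, 113 coding bases long. It is shown because its share of the gene's exon reads varied most (chr16:91926459-91926571, GRCm38, minus strand, GENCODE M21):

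Atp5o exon 5: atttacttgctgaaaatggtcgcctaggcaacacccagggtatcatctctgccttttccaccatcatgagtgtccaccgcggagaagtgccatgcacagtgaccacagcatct

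Its share of the Atp5o exon reads was 1.38% in the lowest mouse, 17.4% at the median and 23.3% in the highest. The flanking row on the 5′ side kept between 25.5% and 34.8%, and the last row between 25.9% and 49.1%. The flanking row on the 3′ side averaged 2.68 normalized reads and held at most 1.19%, and the first row held no reads in any mouse. Both match annotated exons in their spacing, and why they were nearly or wholly empty was not tested. A row's share is therefore not read here as the use of its exon. In non-responders the shares ran from 1.38% to 23.3% with a mean of 12.6% ± 6.75, and in responders from 8.74% to 22.2% with a mean of 16.8% ± 3.85 (SD, n = 30 each). The 8 mice under the lowest responder, from 1.38% to 7.08%, were non-responders, 3 female and 5 male, and none was among the shallower mice. The log2 difference in share was 0.70 (95% confidence interval 0.26 to 1.15) and did not pass over all rows (limma adjusted p = 0.537). The gene value of Atp5o was 831 at the median in non-responders and 848 in responders, with a log2 difference of 0.021 (limma adjusted p = 0.999). Since antisense genes overlap Atp5o, the row's share is uncertain. Whether sequence variants among the mice altered the reads counted in this row was not tested either. Of the gene's 50-base stretches 50.3% recur in other annotated transcripts, which can include those of the overlapping entry named Atp5o. Which of these stretches fall in the row was not tested.

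**Figure D5:**
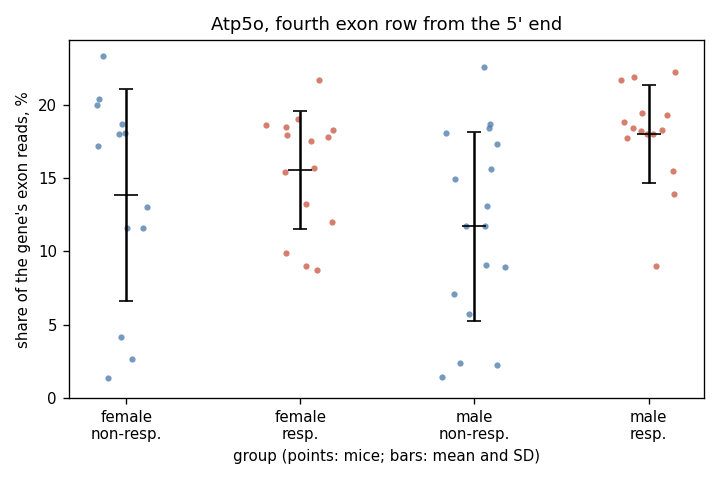
Percentage of the Atp5o exon reads that fell in the exon row of most variable share, by phenotype and sex. Points are mice and bars give the mean and SD. Shares run from 1.38% to 23.3%, and the 8 mice below the lowest responder, at 8.74%, are non-responders of both sexes.

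Other genes of the pathway gave no call in the phenotype, sex or interaction tests by limma, edgeR or DESeq2. Tested were 21 of 36 assembly factors of complexes II to IV and ATP synthase (1 with an unadjusted p under 0.05 for phenotype in limma), 15 of 16 genes of the tricarboxylic acid cycle (4), 9 of 15 electron and adenylate carriers (0), 7 of 11 regulators of mitochondrial biogenesis (0) and 42 nuclear genes of complex I (3). Over all genes 554 of 8535 had an unadjusted p under 0.05 for phenotype in limma. The median log2 differences by phenotype were 0.01, -0.03, -0.01, -0.05 and -0.02 in the same order. Over mice, the median correlation with the 40 genes was 0.65 for complex I genes, 0.50 for assembly factors, 0.39 for carriers and 0.32 for the tricarboxylic acid cycle. For the biogenesis regulators, which include transcription factors of nuclear genes for mitochondrial proteins, it was -0.12. With the 3′ bias held fixed these values were 0.44, 0.29, 0.08, 0.03 and -0.10.

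Promoters were read because the genes moved together. RefSeq windows (GRCm38.p6) from 250 bases before to 50 after a start were found for 26 of the 40 genes, 29 windows of 300 bases. The ETS letters CCGGAAG, the core bound by the GABP family, were present on either strand in 13 of 29 (44.8%), in 16.5% of the 8557 windows of genes in the table and in 8.86% of all 32851 windows. The NRF1 letters, GCGCA joined to TGCGC, were in 3 windows (10.3%, against 2.21% and 0.971%), those of Atp5k, Cox6a1 and Uqcrc1. The YY1 letters AAGATGGCG were in 2 (6.90%, against 3.07% and 1.40%), those of Atp5j and Atp5j2. The motifs were searched separately, so matches may overlap, and as exact letters, so near matches were not counted. A match is a description of the sequence and no evidence of binding.

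Atp5k (Fo subunit e) and Cox6a1 moved with most of the other genes, with median correlations of 0.75 and 0.79, and Sdha with few, at 0.06. These 3 were chosen for display after their values were seen, and other genes paired the features otherwise: Uqcrc1 holds the NRF1 letters with a median correlation of 0.31, and Uqcr10 holds none of the motifs with 0.81. The 3 sequences are shown from 150 bases before to 30 after the start, with ETS and NRF1 letters in capitals on whichever strand they fall. Atp5k holds both motifs, Cox6a1 the ETS letters, its NRF1 match lying outside the stretch shown, and Sdha no exact match. Near matches to the NRF1 letters, such as gcgcaggcgc in the Cox6a1 and Sdha stretches, are not marked. The lack of capitals in Sdha is thus no lack of similar sites. The stretches are chr5:108434370-108434549, chr5:115348929-115349108 and chr13:74350211-74350390 of GRCm38.p6, all on the minus strand:

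Atp5k: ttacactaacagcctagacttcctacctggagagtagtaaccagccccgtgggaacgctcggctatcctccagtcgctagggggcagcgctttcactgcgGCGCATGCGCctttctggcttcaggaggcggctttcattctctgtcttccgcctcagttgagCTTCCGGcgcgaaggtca
Cox6a1: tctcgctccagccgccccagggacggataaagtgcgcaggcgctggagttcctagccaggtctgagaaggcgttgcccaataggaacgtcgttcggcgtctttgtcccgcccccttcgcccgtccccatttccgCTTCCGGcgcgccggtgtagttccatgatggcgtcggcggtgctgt
Sdha: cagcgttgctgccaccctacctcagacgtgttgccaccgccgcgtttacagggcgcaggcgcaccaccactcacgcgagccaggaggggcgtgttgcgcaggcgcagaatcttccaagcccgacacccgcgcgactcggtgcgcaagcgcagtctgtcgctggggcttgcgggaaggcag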

How the data were processed

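PolyA RNA from the striatum of 60 mice was sequenced in 1 library each, and groups were taken from the labels for phenotype and sex. The deposited gene values are a signal that the authors made by counting reads over Ensembl 59 union exons and scaling each library with edgeR's upper quartile method, after the reads were aligned with Bowtie 0.12.7 to NCBI m37 (mm9). Each library's values were whole multiples of 1 step (largest deviation 6.53e-05 reads, 100.0% within 0.01), so whole reads were recovered for the count tests. The deposited exon values are a score, since the authors scaled the exon counts in the same way and rounded them. The submitters' processing notes also name CASAVA, FastQC, R 3.0.2 and edgeR 3.4.2.

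Symbols were found for 8858 of the 9066 identifiers, and 208 had none. Genes averaging at least 10 (8535) were tested in R 4.3.3 on log2(value + 1) by limma 3.58.1, allowing a mean-variance trend, with phenotype and sex as terms. Fold changes on this scale understate those of low genes. Exon shares were tested by limma on log2((row + 1)/(gene sum + 1)), with the trend on the mean exon value. EdgeR 4.0.16 and DESeq2 1.42.0 were run on recovered reads. P-values were adjusted by Benjamini-Hochberg over all features, and the tests were run on simulated data first. The 3′ bias used genes with at least 5 exon rows and none of the 40 genes, and is given per SD over mice. For association with it, limma made more false calls than edgeR in simulated data, so both are given. Each mouse was 1 library, so errors and p-values rest on the differences between mice. The mice were taken as independent, and no family or line term was fitted, so relatedness among the selectively bred mice was not modelled.

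Positions and sequences came from GENCODE M21 and RefSeq (GRCm38), not the build of the files, and rows were matched to exons only by the spacing of their starts. Python 3.11.15, pandas 2.3.3 and matplotlib 3.10.9 were used. Named genes were the 3 of smallest p per comparison, every gene past the threshold, the 3 of highest and lowest variation (mean at least 100) and of lowest median correlation, the highest and lowest level per complex, and isoform pairs. The genes and lists were chosen with earlier results of these data known.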

Additional observations from a re-analysis of the deposited data

How the results depend on the processing

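Of the 40 genes, 1 was called between phenotypes (Cox7a2). The count was 2 with the 3′ bias as a covariate (Cox7a2 and Sdhb), and 0 among the deeper mice, among the shallower mice and by edgeR on recovered reads. The log2 difference of Cox7a2 in those last 3 settings was -0.47 (adjusted p = 0.250, limma), -0.68 (adjusted p = 0.879, limma) and -0.48 (adjusted p = 0.0545, edgeR). Fewer mice were fitted in the settings by depth, and the cause of the others was not tested. Over all settings the Cox7a2 difference lay between -0.68 and -0.47. The sex and interaction counts were 0 in every setting tried. The count of exon rows was 3 or 4, all of Cox7a2. Without the 4 mice of strongest bias, the genes associated with the bias numbered 19 instead of 39. The median correlation of 0.67 was 0.57 by Spearman, 0.45 with the bias held fixed, 0.46 with the bias and depth range held fixed and 0.49 without the 4 mice, and lay between 0.62 and 0.68 without any 1 mouse. The median coefficient of variation was 0.153 after removal of the bias. The median level was 1442 per kilobase with principal transcript lengths. The settings with shallower mice, the 4 mice, the depth range and the principal length were chosen after seeing the data. A length from the exon rows was not run, because the rows give a start alone. No paired analysis was possible because every mouse has a number of its own, so the groups share none. The lowest recovered count in a mouse was 10 for Uqcrh-ps2, 18 for Uqcrh-ps1 and 38 for Atp5k, so counting error adds to the spread of these low genes.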
